A study of Solanum lycopersicum with 84 samples.

Results

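Transcript levels of 8 genes of the tomato circadian clock and of its links to light were followed through seed development. The members were the rows of the count table that start with 8 given loci, namely Solyc10g005030 (listed as LHY), Solyc03g115770 (TOC1), Solyc04g071990 and Solyc12g056650 (both GIGANTEA), Solyc01g068560 (LNK2), Solyc09g075080 (EID1), Solyc08g065870 (ELF3) and Solyc01g005300 (FKF1). They were 8 of 33976 genes in the table, and all 8 were among the 24676 genes that passed the filter on low counts. RNA came from seeds of the cultivar Moneymaker, grown in a greenhouse with 16 h of light. Embryo and endosperm were dissected at 35, 42 and 49 days after flowering (DAF) and at 8 stages of fruit ripening, namely mature green (MG, 56 DAF), breaker (B, 63 DAF), pale orange (PO, 67 DAF), orange (O, 70 DAF), dark orange (DO, 72 DAF), red (R, 76 DAF), and red plus 7 and 14 days (R7 and R14, 83 and 90 DAF). Seed coat was dissected at 35, 42 and 49 DAF, and whole seeds were taken at 15, 21 and 28 DAF. Each of these 28 groups had 3 libraries, 84 in all, which the study's methods describe as biological replicates of pooled seeds.

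The plant clock has mostly been worked out in Arabidopsis, and the roles given here come from that species unless stated. It is a loop of transcription factors that repress each other, so that some genes peak in the morning and others in the evening, and light resets it through photoreceptors and F-box proteins, which mark other proteins for degradation. TOC1 is an evening pseudo-response regulator that represses morning genes, and ELF3 is the scaffold of the evening complex, another repressor. GIGANTEA is a large protein that stabilises F-box proteins of the clock, and with one of them, the blue-light receptor FKF1, it removes repressors of flowering. LNK2 is a co-activator that works with REVEILLE factors, and EID1 is an F-box protein of phytochrome A signalling. In tomato, variants of EID1 and LNK2 are known from domestication, where they slowed the clock.

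Because clock transcripts change over the day, the hour at which a fruit was picked could move every level given here. That hour is not given in the sources used here, so hour of harvest and stage cannot be told apart. The methods name 2 years of growth, and which library came from which is likewise not given. The name LHY for Solyc10g005030 could not be checked, since no annotation at hand pairs the locus with a name, and no role is attached to it. Its counts are given under the locus name.

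Library totals ranged from 16908779 to 22734330 estimated counts, with a median of 21199645. Levels are TMM-scaled CPM (counts scaled to a common library size), which corrects for libraries in which a few genes take much of the reads, and they compare groups for 1 gene but not 1 gene with another, since no gene lengths were at hand. Mean TMM factors were 0.531 to 0.691 in embryos of 35 to 49 DAF and 1.25 to 1.62 in whole seeds. The dissections were checked with marker lists that the study itself placed on these libraries. Summed embryo markers reached 89.0 to 199.6 CPM in the 33 embryo libraries, against 0.223 to 14.0 CPM in endosperm libraries. Summed endosperm markers reached 4.56 to 111 CPM in endosperm libraries, against 0.513 to 5.58 CPM in embryo libraries, so these ranges overlapped. In seed coat libraries they reached 4.31 to 15.9 CPM. At 35 DAF the endosperm markers were higher in seed coat, at 11.6 to 15.9 CPM, than in endosperm, at 4.56 to 5.25 CPM. At 42 DAF the ranges overlapped, at 5.04 to 6.79 CPM in seed coat and 6.18 to 11.8 CPM in endosperm. Summed seed coat markers reached 3.83 to 81.7 CPM in seed coat libraries, against 0.200 to 1.92 CPM in embryo and 0.429 to 15.6 CPM in endosperm libraries, the top of which lay at 35 DAF. Their part in the results was not tested. Of the 84 libraries, 6 correlated with their own group at a mean r under 0.97, against a median of 0.990. They were seed coat 42 DAF library 1, endosperm 42 DAF library 1, embryo DO libraries 2 and 3, embryo R7 library 3 and embryo R14 library 1. Values without these 6 are given beside many, but not all, of the results they enter.

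**Figure D1:**
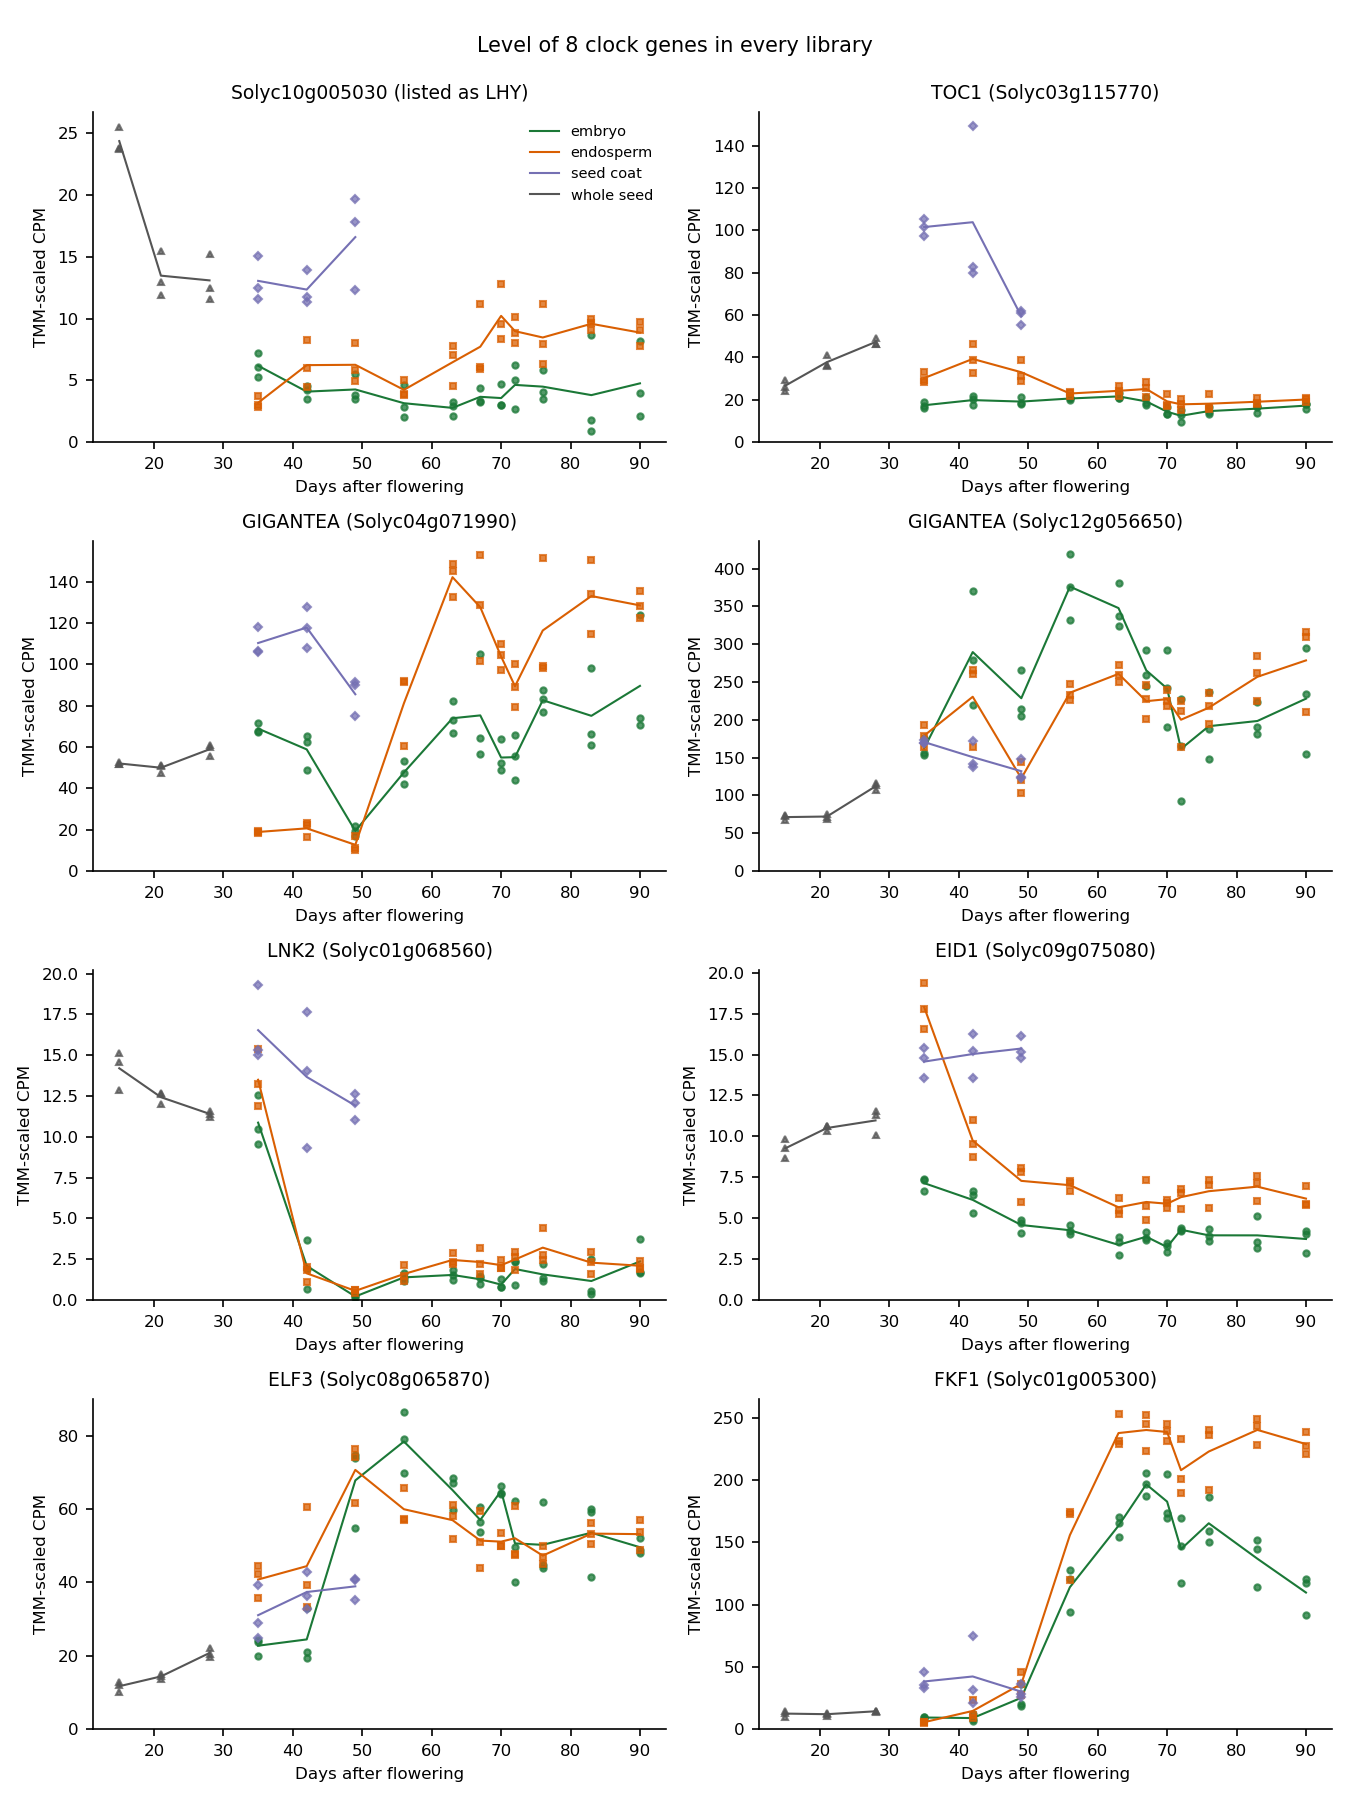
Level of each of the 8 genes (y axis, TMM-scaled CPM, a scale of its own for each gene) against days after flowering (x axis). Points are libraries, lines join the means of 3 libraries, and colours mark embryo, endosperm, seed coat and whole seed. FKF1 lies below 50 CPM in both inner tissues up to 49 DAF and above 90 CPM from 56 DAF, while LNK2 lies under 5 CPM in both from 42 DAF on.

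FKF1 and LNK2 had the widest courses. In embryo and endosperm these ran in opposite directions from 35 to 49 DAF, while both genes rose from 49 DAF to MG. In the embryo FKF1 was at 9.36, 10.0 and 8.46 CPM at 35 DAF, at 12.4, 7.90 and 6.26 CPM at 42 DAF, and at 18.3, 20.5 and 36.5 CPM at 49 DAF. The 3 libraries of mature green fruit held 94.1, 127 and 120 CPM. The embryo mean was highest at PO, with 196.5 ± 9.03 CPM (SD, n = 3), and was 109.6 ± 16.0 CPM at R14. In the endosperm the libraries of 35 DAF held 5.50, 5.85 and 5.25 CPM, those of 42 DAF 23.4, 11.1 and 9.21 CPM, those of 49 DAF 27.0, 35.9 and 45.8 CPM, and those of mature green fruit 120, 173 and 175 CPM. From breaker on, all endosperm means lay between 208 and 240 CPM. All 24 embryo libraries from MG on, which held 91.3 to 205 CPM with a median of 153 CPM, were above all 9 earlier ones, which held 6.26 to 36.5 CPM. The 24 later endosperm libraries likewise did not overlap with the 9 earlier ones, at 120 to 253 CPM against 5.25 to 45.8 CPM.

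Between 35 DAF and MG, FKF1 rose 12.3-fold in the embryo (log2 fold change 3.62 ± 0.28, SE, adjusted p = 4.44e-17) and 28.1-fold in the endosperm (4.81 ± 0.30, adjusted p = 2.52e-21). These and all further adjusted p-values come from the quasi-likelihood test of edgeR, adjusted after Benjamini and Hochberg over 24676 genes, and a gene is called when its adjusted p is under 0.05 and its log2 fold change exceeds 1 in size. The increase was smaller in the embryo by 1.20 ± 0.37 on the log2 scale (interaction, adjusted p = 0.00704). That difference lost its call without libraries numbered 2 (adjusted p = 0.120), without those numbered 3 (adjusted p = 0.0674), and with library totals used instead of TMM factors (adjusted p = 0.164).

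LNK2 went the other way between 35 and 49 DAF. In the embryo it was at 9.59, 10.5 and 12.5 CPM at 35 DAF, at 0.684, 1.91 and 3.69 CPM at 42 DAF, and at 0.303, 0.225 and 0.133 CPM at 49 DAF. The last 3 values stand for only 4, 3 and 2 counts. In the endosperm the libraries held 11.9, 15.4 and 13.2 CPM at 35 DAF, 1.08, 1.82 and 2.02 CPM at 42 DAF, and 0.434, 0.614 and 0.647 CPM at 49 DAF. Later levels stayed between 0.401 and 3.72 CPM in the 24 embryo libraries and between 1.18 and 4.38 CPM in the 24 endosperm libraries, all below each library of 35 DAF of the same tissue. At MG against 35 DAF, LNK2 fell 7.81-fold in the embryo (log2 fold change -2.97 ± 0.39, adjusted p = 1.62e-09) and 8.42-fold in the endosperm (-3.07 ± 0.39, adjusted p = 4.09e-10). The difference between the tissues was 0.11 ± 0.53 on the log2 scale (adjusted p = 0.963), with a 95% interval of -0.94 to 1.15. LNK2 was at its lowest at 49 DAF in both, and the step to mature green was a rise of 2.64 ± 0.55 in the embryo (adjusted p = 0.000252) and of 1.49 ± 0.45 in the endosperm (adjusted p = 0.00813) on the log2 scale. Without libraries numbered 2 the endosperm rise was no longer called, with an adjusted p of 0.0843. The 3 seed coat markers, all detected, summed to 11.4 to 15.6 CPM in the endosperm at 35 DAF, against 11.4 to 19.1 CPM in seed coat of that age, while later endosperm sums were 1.03 to 2.16 CPM (42 DAF), 4.65 to 6.30 CPM (49 DAF) and 0.818 to 1.54 CPM (MG). They were thus high in the endosperm at the age when LNK2 was, though not at their lowest at 49 DAF, and their part in the fall was not tested.

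In seed coat and whole seed, LNK2 kept levels like those of the youngest inner tissues. The 9 seed coat libraries held 9.32 to 19.3 CPM and the 9 whole-seed libraries 11.2 to 15.1 CPM. Ordered by mean, the 8 highest of the 28 groups were the 3 seed coat groups, the 3 whole-seed groups, endosperm 35 DAF and embryo 35 DAF, and the libraries of the last of these, at 9.59 CPM or more, did not overlap with those of the next group, endosperm R, at 4.38 CPM or less. In bulk tissue, fewer cells that express a gene and less RNA of it per cell cannot be told apart, here and below.

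ELF3 rose in the embryo before MG and less in the endosperm. Its embryo libraries held 23.9, 20.1 and 24.3 CPM at 35 DAF, 33.0, 21.1 and 19.3 CPM at 42 DAF, 54.9, 73.8 and 74.7 CPM at 49 DAF, and 86.3, 69.9 and 79.0 CPM at MG, the highest mean of all groups. The libraries of 49 DAF did not overlap with those of 42 DAF, and this step was a 2.77-fold rise (log2 fold change 1.47 ± 0.17, adjusted p = 5.06e-10). Endosperm libraries held 42.3, 35.6 and 44.4 CPM at 35 DAF, 60.7, 39.3 and 33.3 CPM at 42 DAF, 61.5, 74.2 and 76.3 CPM at 49 DAF, and 65.7, 57.3 and 56.9 CPM at MG. Between 35 DAF and MG the embryo changed by 1.79 ± 0.17 (adjusted p = 1.07e-13) and the endosperm by 0.56 ± 0.17 (adjusted p = 0.00286, under the fold limit, and 0.0597 without libraries numbered 2), and these changes differed by 1.23 ± 0.24 (adjusted p = 2.16e-05). After MG the embryo level fell by 0.66 ± 0.17 on the log2 scale to 49.6 CPM at R14, against 78.4 CPM at MG (adjusted p = 0.00107), a change of -0.64 without the 6 libraries and of -0.31 with library totals (adjusted p = 0.123). In whole seeds ELF3 means were 11.7, 14.4 and 20.8 CPM at 15, 21 and 28 DAF, the lowest of the 28 groups with TMM factors. By library totals they were 18.9, 21.1 and 25.9 CPM, and embryo 42 and 35 DAF were lower, at 12.9 and 15.7 CPM.

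The 2 GIGANTEA genes followed different courses, and their division needs care. In each gene 81 of the 84 estimated counts were not whole numbers, as where reads that match more than 1 transcript are divided by estimate, and with which transcripts they were shared was not tested. Solyc04g071990 was at 71.8, 67.4 and 67.5 CPM in the embryo at 35 DAF, against 18.4, 18.9 and 19.5 CPM in the endosperm, a 3.64-fold difference (log2 fold change 1.87 ± 0.20, adjusted p = 2.28e-12). At 42 DAF it was still 2.85-fold higher in the embryo (1.51 ± 0.20, adjusted p = 1.90e-09), and with library totals this difference fell just under the fold limit, at 0.98, while without the 6 libraries it was 1.57. At 49 DAF both tissues were low, with 17.2, 21.9 and 19.2 CPM in the embryo and 10.1, 11.2 and 16.8 CPM in the endosperm. The order then turned. At MG the embryo held 47.7, 53.4 and 42.1 CPM and the endosperm 60.3, 91.4 and 91.7 CPM, and across all 8 ripening stages the embryo averaged 69.3 CPM, against 115 CPM in the endosperm (log2 fold change -0.74 ± 0.07, adjusted p = 1.87e-15, under the fold limit), and -0.78 without the 6 libraries.

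**Figure D2:**
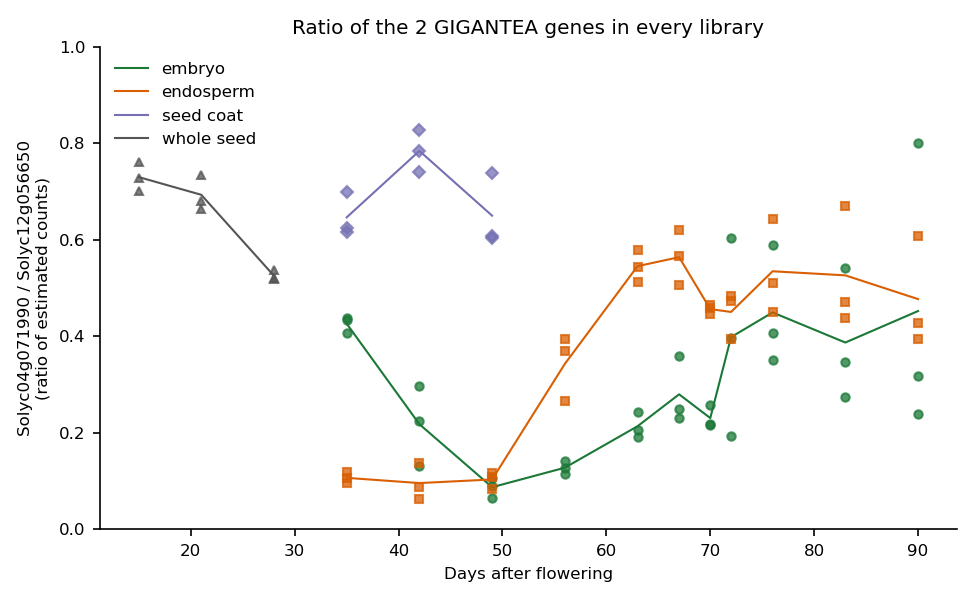
Ratio of the estimated counts of Solyc04g071990 to those of Solyc12g056650 (y axis) against days after flowering (x axis). Points are libraries and lines join the means of 3 libraries, coloured by tissue. The endosperm libraries lie under 0.14 up to 49 DAF and above 0.26 from 56 DAF, and the embryo means have their minimum at 49 DAF.

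For Solyc04g071990 the log2 change between 35 DAF and MG was -0.53 ± 0.19 in embryos (adjusted p = 0.0125, under the fold limit) and 2.10 ± 0.20 in endosperms (adjusted p = 3.38e-14). The embryo value was -0.09 with library totals (adjusted p = 0.761), and its adjusted p was 0.0883 and 0.191 without libraries numbered 2 or 3. This was the widest tissue difference among the members, -2.63 ± 0.27 on the log2 scale (adjusted p = 5.93e-12). Its partner Solyc12g056650 peaked in the embryo at MG, at 420, 376 and 333 CPM, against 177, 154 and 156 CPM at 35 DAF (log2 fold change 1.22 ± 0.20, adjusted p = 3.02e-07). Scaled by library totals, its embryo mean was highest at B instead, at 368 CPM against 351 CPM at MG. In the endosperm it held 227, 248 and 233 CPM at MG and 193, 179 and 165 CPM at 35 DAF, a change of 0.40 ± 0.20 (adjusted p = 0.0676). From MG to R14 it fell by 0.72 ± 0.20 in the embryo (adjusted p = 0.00234), and the change in the embryo was lower than that in the endosperm by 0.96 ± 0.28 (adjusted p = 0.0120). Without the 6 libraries these values were -0.51 and -0.75. The fall in the embryo had an adjusted p above 0.05 with library totals (-0.38, 0.0686), in a fit of only the groups compared (0.0523) and without libraries numbered 1 (-0.42, 0.205), and the tissue difference in that fit (0.0764) and without libraries numbered 1 or 2 (0.151 and 0.175).

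As a ratio of Solyc04g071990 to Solyc12g056650, the embryo libraries went through a minimum, with means of 0.426 ± 0.017, 0.218 ± 0.083, 0.087 ± 0.021 and 0.127 ± 0.014 at 35, 42, 49 and 56 DAF (SD, n = 3) and 0.452 ± 0.305 at R14. The endosperm ratio was 0.106 ± 0.012, 0.095 ± 0.038 and 0.103 ± 0.017 at 35, 42 and 49 DAF, then 0.343 ± 0.068 at MG and 0.545 ± 0.033 at B. By tissue, the median ratio was highest in seed coat libraries, at 0.700 with a range of 0.603 to 0.828, and next in whole seeds, at 0.681 with a range of 0.518 to 0.761. In the late embryo the 3 libraries of a group lay far apart. At R14 the ratios were 0.801, 0.317 and 0.239, where the first library is one of the 6 that correlate least with their own group.

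TOC1 had its highest group means in seed coat, which was sampled only at 35, 42 and 49 DAF. Seed coat libraries held 102, 97.4 and 106 CPM at 35 DAF, 149, 79.8 and 82.7 CPM at 42 DAF, and 61.8, 55.5 and 61.0 CPM at 49 DAF. Embryo libraries at these ages held 16.2 to 21.7 CPM and endosperm libraries 28.2 to 46.6 CPM, so no library of either inner tissue reached the lowest seed coat library. The seed coat level was 3.39-fold that of the mean of embryo and endosperm (log2 fold change 1.76 ± 0.07, adjusted p = 7.91e-31), and 1.67 on the log2 scale without the 6 libraries least like their own group. Within the seed coat it fell by 0.77 ± 0.15 at 49 DAF against 35 DAF (adjusted p = 2.88e-05, under the fold limit), and with library totals the change was -0.23 (adjusted p = 0.254). In the whole seed it was higher by 0.83 ± 0.15 at 28 DAF, with 46.3, 46.3 and 49.2 CPM, than at 15 DAF, with 29.4, 26.2 and 24.3 CPM (adjusted p = 1.30e-05, under the fold limit). In the embryo it was lower than in the endosperm by 0.80 ± 0.16 at 35 DAF, 0.99 ± 0.16 at 42 DAF and 0.79 ± 0.16 at 49 DAF (adjusted p = 1.17e-05, 2.80e-07 and 2.10e-05), and without the 6 libraries the value at 42 DAF was -0.85. With library totals the values at 35, 42 and 49 DAF were -1.29, -1.52 and -1.05, past the fold limit.

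EID1 had its highest mean in the endosperm at 35 DAF, and with library totals in seed coat at 42 DAF, at 18.5 CPM, against 17.4 CPM in that endosperm. In TMM-scaled CPM the endosperm libraries of 35 DAF held 16.5, 17.8 and 19.4 CPM, and the means at 42 DAF, 49 DAF and MG were 9.74, 7.28 and 7.02 CPM. From 35 DAF to MG it fell 2.55-fold in the endosperm (log2 fold change -1.35 ± 0.14, adjusted p = 8.51e-13) and by 0.74 ± 0.14 on the log2 scale in the embryo (adjusted p = 8.78e-06, under the fold limit), where library totals gave -0.30 (adjusted p = 0.129). At 35 DAF the embryo, with 7.36, 7.41 and 6.67 CPM, was 2.51-fold below the endosperm (log2 fold change -1.33 ± 0.14, adjusted p = 2.56e-12), and over MG to R14 it was below by 0.72 ± 0.05 on the log2 scale (adjusted p = 3.47e-20), or -0.77 without the 6 libraries. The summed seed coat markers given for LNK2 were likewise high in the endosperm at 35 DAF and low at MG, and their part in this fall and in this tissue difference was not tested. Other members with high seed coat levels at 35 DAF differed in their order between the inner tissues. Solyc04g071990 averaged 110 CPM in seed coat, 18.9 CPM in the endosperm and 68.9 CPM in the embryo. TOC1 averaged 102 CPM in seed coat, 30.2 CPM in the endosperm and 17.4 CPM in the embryo. In the seed coat all 9 libraries lay between 13.5 and 16.3 CPM of EID1. By library totals the seed coat means were 11.3, 18.5 and 17.3 CPM at 35, 42 and 49 DAF, and the log2 fold change at 49 against 35 DAF was 0.62 (adjusted p = 0.000992), beside 0.08 with TMM factors (adjusted p = 0.701). EID1 had the smallest spread between libraries of a group among the members, with a pooled SD of 0.14 in log2(CPM + 1), against a median of 0.19 over all genes.

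Solyc10g005030 was highest in the youngest whole seeds, with 23.7, 23.8 and 25.5 CPM at 15 DAF, and its whole-seed libraries of 28 DAF held 11.5, 12.5 and 15.3 CPM (log2 fold change -0.90 ± 0.37, adjusted p = 0.0428, under the fold limit). Seed coat libraries held 11.3 to 19.7 CPM, 2.85-fold the mean of the inner tissues (1.51 ± 0.18, adjusted p = 4.35e-11). From MG to R14 the 24 embryo libraries had a median of 3.29 CPM, with a range of 0.936 to 8.70 CPM, and the 24 endosperm libraries a median of 8.15 CPM, with a range of 3.81 to 12.8 CPM. Over these stages the embryo was 2.06-fold lower (-1.04 ± 0.14, adjusted p = 5.02e-10), which library totals moved to -0.94, under the fold limit, and leaving out the 6 libraries to -1.26. Its rise in the endosperm from MG to R14 (1.07 ± 0.38, adjusted p = 0.0293) lost its call without the libraries of any 1 number, with adjusted p of 0.0544 to 0.113. Its replicate spread was the widest of the members, with a pooled SD of 0.38, above that of 89.1% of genes, and the embryo libraries of R7 held 0.936, 1.77 and 8.70 CPM, the last of them among the 6 libraries named above. For the neighbouring locus number Solyc10g005080, one of 13 further loci taken as clock genes by their ID, with identities that were not checked, the embryo mean was 26.9 CPM at MG, against 113 CPM at 35 DAF, and the endosperm mean was 23.5 CPM at MG, against 74.4 CPM at 35 DAF.

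**Figure D3:**
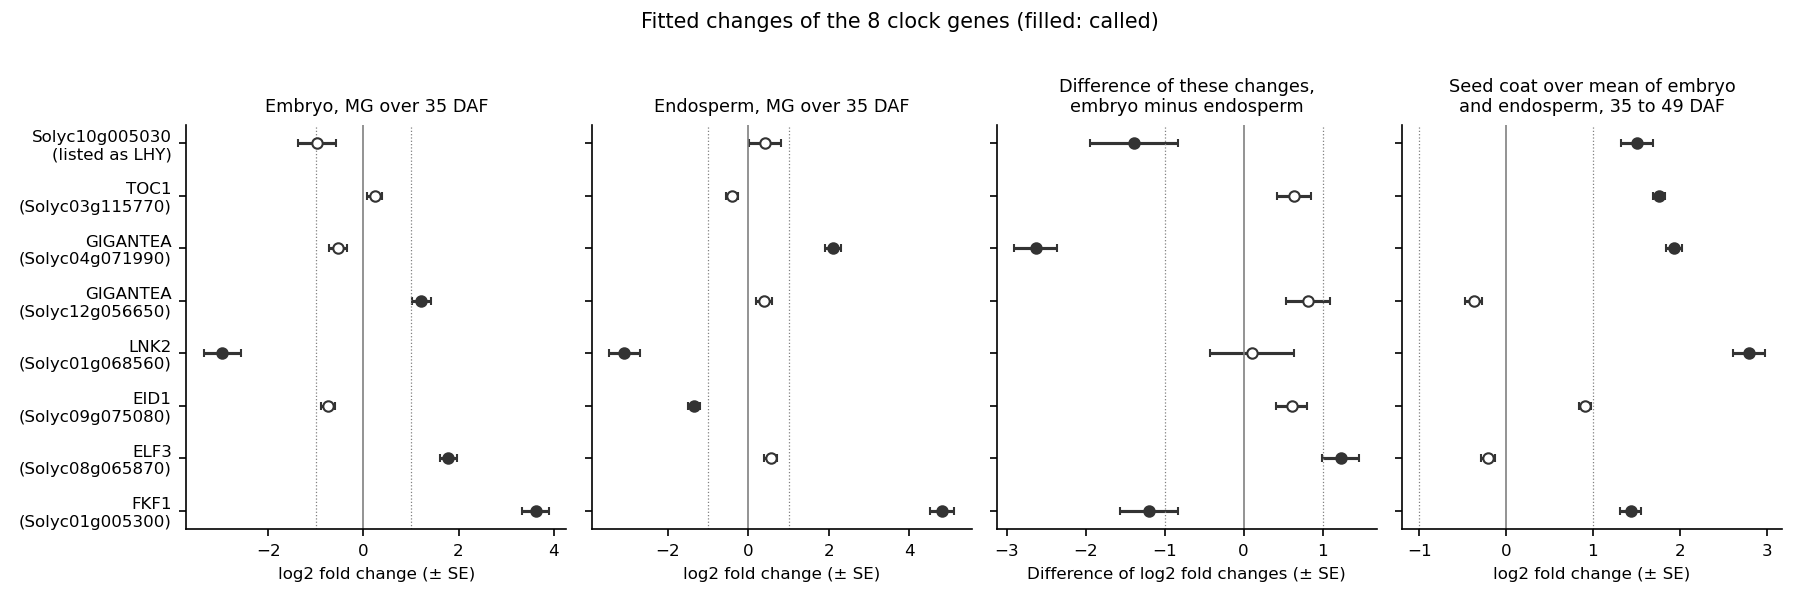
Log2 fold changes of the 8 genes (x axis) for MG over 35 DAF in embryo and endosperm, for the difference of these changes, embryo minus endosperm, and for seed coat over the mean of embryo and endosperm. Error bars are SE, derived from the log2 fold change and the F statistic of the edgeR test. Filled points are called, dotted lines mark a log2 fold change of -1 and 1. FKF1 and LNK2 each change in 1 direction in both inner tissues, at 3.62 and 4.81 and at -2.97 and -3.07, whereas Solyc04g071990 differs between them by -2.63.

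Counted over the members, from 35 DAF to MG 4 of 8 were called in the embryo (3 higher, 1 lower) and 4 of 8 in the endosperm (2 higher, 2 lower). Over all genes tested, 44.5% were called in the embryo (17.7% higher, 26.8% lower) and 48.4% in the endosperm (22.6% higher, 25.8% lower), so the members' counts were near the background. In the 13 further clock loci, 9 were called in the embryo (7 higher, 2 lower) and 5 in the endosperm (3 higher, 2 lower). Their median log2 fold change stood at 1.09 in the embryo, and at 0.37 in the endosperm, beside -0.09 and -0.02 over all genes. Among them Solyc06g076960, which the study names as ELF4, a small protein of the evening complex, was at 20.5 CPM at MG in the embryo, against 5.47 CPM at 35 DAF (1.91 ± 0.18, adjusted p = 1.00e-13), and at 12.4 CPM in the endosperm, against 1.69 CPM (2.87 ± 0.20, adjusted p = 2.45e-19). In the embryo Solyc10g084370 rose by 3.42 ± 0.37 and in the endosperm by 3.25 ± 0.35, and Solyc04g049670 by 2.14 ± 0.13 in the endosperm. Solyc06g005680, Solyc02g036370, Solyc07g017750, Solyc12g095900 and Solyc10g086000 rose in the embryo by 2.16 ± 0.26, 1.82 ± 0.28, 1.51 ± 0.14, 1.32 ± 0.20 and 1.09 ± 0.15. Solyc10g005080 fell by 2.08 ± 0.21 in the embryo and 1.66 ± 0.21 in the endosperm. Solyc06g051660 fell by 1.29 ± 0.50 in the embryo, where it averaged 0.682 CPM at MG against 1.69 CPM at 35 DAF, and 1.85 ± 0.45 in the endosperm.

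Between the inner tissues, 2 of 8 members were called at 35 DAF, 1 at 42 DAF and 1 over the ripening stages, where 42.9%, 33.5% and 33.4% of all genes were called. At 49 DAF none were called, against 33.7% of all genes. There 6 members had an unadjusted p under 0.05 in edgeR, and DESeq2 also called none. With library totals, which set embryo levels of 42 DAF lower throughout, the call counts were 4, 5 and 2 at 35, 42 and 49 DAF. Over all genes they were then 11340, 9604 and 8415 of 24676. For the change from 35 DAF to MG, 4 of 8 members differed between embryo and endosperm, against 27.1% of all genes, with ELF3 called as changing more upward in the embryo and Solyc04g071990, FKF1 and Solyc10g005030 as changing less upward there. The call of Solyc10g005030 (-1.38 ± 0.56, adjusted p = 0.0416) was lost without libraries numbered 2 or 3 (adjusted p = 0.295 and 0.0853), with library totals (adjusted p = 0.246) and without a filter on low counts (adjusted p = 0.0504), and without libraries numbered 2 the count was 2. With library totals 5 members were called, namely ELF3, Solyc04g071990, TOC1 (1.16), Solyc12g056650 (1.33) and EID1 (1.14), beside 7455 of 24676 genes. At any fold, 7 of 8 members had an adjusted p under 0.05 for this difference, beside 39.4% of all genes.

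In the seed coat 5 of 8 members were called higher than the mean of embryo and endosperm and none lower, beside 44.4% of all genes called, 27.0% higher and 17.4% lower. Besides TOC1 and Solyc10g005030 they were LNK2 (6.94-fold, 2.79 ± 0.18, adjusted p = 3.12e-21), Solyc04g071990 (3.83-fold, 1.94 ± 0.09, adjusted p = 3.95e-28) and FKF1 (2.70-fold, 1.43 ± 0.12, adjusted p = 3.30e-16). FKF1 in the seed coat averaged 38.2, 42.2 and 30.0 CPM at 35, 42 and 49 DAF, and at 49 DAF this lay between the embryo mean of 25.1 CPM and the endosperm mean of 36.2 CPM. For LNK2, the seed coat had 12.6, 12.1 and 11.0 CPM at 49 DAF, when both inner tissues were under 0.65 CPM. EID1 had a value of 0.91 and was called with library totals, at 1.43, which made 6, beside 11573 of 24676 genes in that setting. ELF3 and Solyc12g056650 had values of -0.21 ± 0.08 and -0.37 ± 0.10, both with an adjusted p under 0.05. With library totals these turned to 0.31 (adjusted p = 0.000602) and 0.15 (adjusted p = 0.120). The adjusted p of ELF3 was above 0.05 with DESeq2 (0.118), with the replicate block (0.0670) and without libraries numbered 1 or 2 (0.290 and 0.133). Without the 6 libraries all 5 were still called, at 1.67 for TOC1, 1.49 for Solyc10g005030, 2.83 for LNK2, 1.95 for Solyc04g071990 and 1.29 for FKF1. The median over the 8 members was 1.47, that over the 13 further loci 0.40 and that over all genes 0.00.

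**Figure D4:**
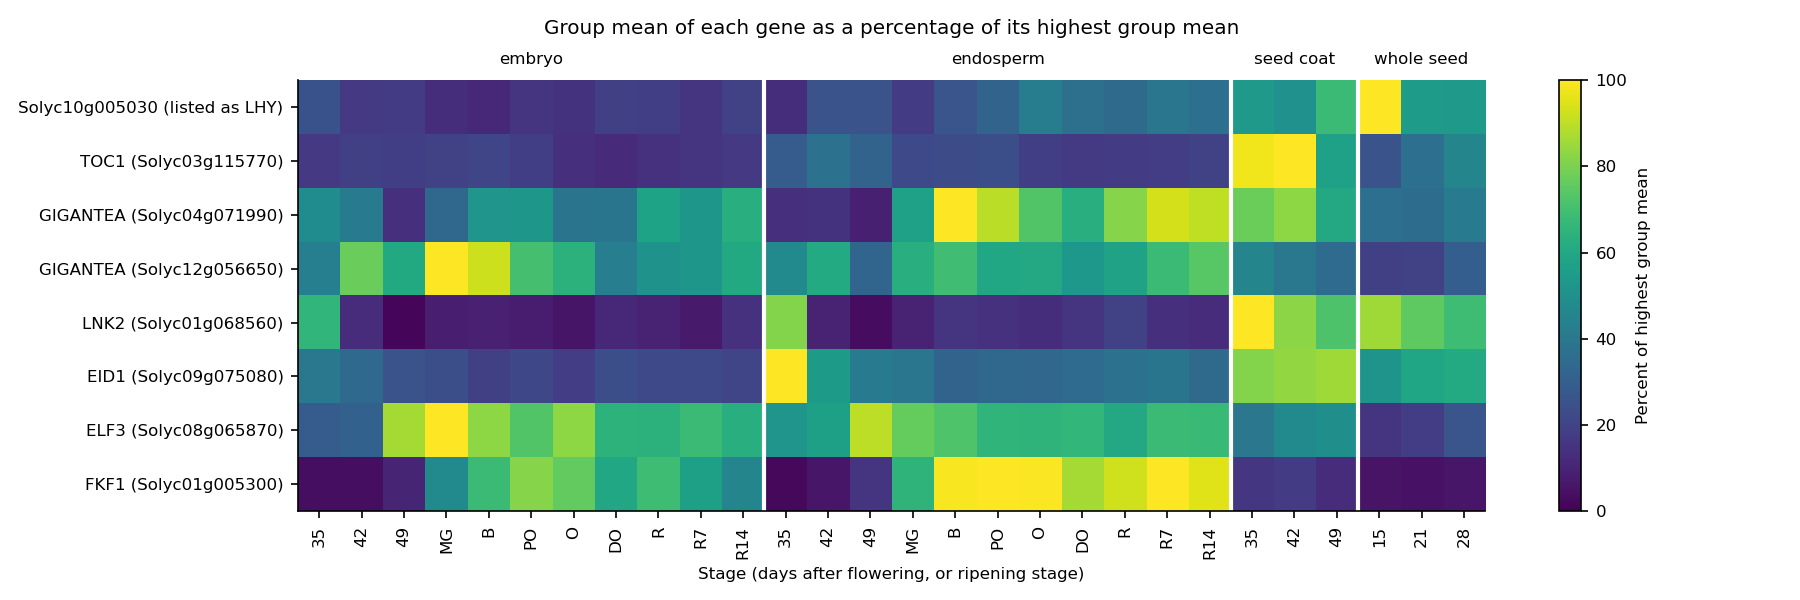
Mean level of each gene in the 28 groups as a percentage of its own highest group mean (colour, 0 to 100), with stages along the x axis in order of age within each tissue. Whole seed and seed coat hold high values of LNK2, and FKF1 is low in all groups before MG.

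Over 24 consecutive steps, 15 of 192 tests of members were called, 8 in the 3 embryo steps from 35 DAF to MG and 7 in the 3 endosperm steps. The shares of all genes called in these steps, in time order, were 19.4%, 21.0% and 6.95% for embryos, and 27.4%, 19.7% and 12.8% for endosperms. In the 4 steps of whole seed and seed coat no member was called, beside 11.3% of genes over these steps together, and DESeq2 called none there, with 7 of 32 unadjusted p-values of edgeR under 0.05 and 4 still so after adjustment. In the embryo LNK2 fell at 42 DAF and again at 49 DAF, Solyc04g071990 fell and ELF3 and FKF1 rose at 49 DAF, and at MG Solyc04g071990, LNK2 and FKF1 rose. The endosperm showed LNK2 lower and FKF1 higher at both 42 and 49 DAF, and at MG Solyc04g071990, LNK2 and FKF1 rose. The FKF1 call at 49 DAF in the embryo, and those at 42 and 49 DAF in the endosperm, each fell away when the libraries of 1 number were left out, with log2 fold changes of 0.97, 0.87 and 0.87. The call of LNK2 at 49 DAF in the endosperm was lost without libraries numbered 2 (-1.49, adjusted p = 0.120). Without the 6 libraries the FKF1 step to 42 DAF in the endosperm was 0.88, under the fold limit, and that to 49 DAF was 1.84. Leaving out the libraries of 1 number in turn gave 13 to 21 calls over all steps, and leaving out the 6 libraries gave 20.

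In the 14 steps after MG no member was called, beside 0.535% of genes over these steps together, 2.64% at most in 1 step. DESeq2 called none there either, and 16 of 112 unadjusted p-values of edgeR were under 0.05. Of these steps, 2 had an adjusted p under 0.05 below the fold limit, both for Solyc04g071990 at B against MG (0.63 ± 0.19 in the embryo, adjusted p = 0.0346, and 0.81 ± 0.19 in the endosperm, adjusted p = 0.00556). Over the whole span from MG to R14 no member was called in the embryo, where 19.6% of all genes were, and 3 had an adjusted p under 0.05, namely Solyc04g071990 (0.91 ± 0.19, and 0.60 without the 6 libraries), Solyc12g056650 and ELF3, the same 3 with an unadjusted p under 0.05. DESeq2 called none in the embryo. In the endosperm 1 was called, Solyc10g005030, where 12.1% of all genes were. No member differed between the tissues in this change by the call rule, where 7.41% of all genes did, and 2 had an unadjusted p under 0.05 (DESeq2 called none).

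No member was called in the whole seed at 28 against 15 DAF or in the seed coat at 49 against 35 DAF, against 23.0% and 25.0% of all genes, by edgeR or by DESeq2. In the whole seed 4 members had an unadjusted p under 0.05, all 4 also after adjustment. ELF3 was higher by 0.83 ± 0.17 at 28 DAF than at 15 DAF (adjusted p = 7.04e-05), and Solyc12g056650 by 0.65 ± 0.20 (adjusted p = 0.00586). With library totals these values were 0.45 and 0.28 (adjusted p = 0.180 for Solyc12g056650), TOC1 stood at 0.45, and Solyc10g005030 was called, at -1.27 (adjusted p = 0.00515). The adjusted p of Solyc10g005030 was above 0.05 without libraries numbered 1 or 2 (0.0860 and 0.229) and without the filter (0.0514), and that of Solyc12g056650 without libraries numbered 2 (0.0699). In the seed coat TOC1 was the single member with an unadjusted p under 0.05.

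Within groups, some pairs of members varied together or in opposite directions. How often pairs of other genes do so was not computed. Over the 84 libraries, as deviations from the means of the 28 groups, LNK2 and ELF3 had a Pearson r of -0.65, and ELF3 and FKF1 one of 0.60. The r was 0.59 for TOC1 and FKF1, 0.59 for Solyc10g005030 and LNK2, and 0.51 for Solyc04g071990 and LNK2. These 5 were the pairs of 28 with r above 0.5 in size. They are descriptions, since the libraries of all pairs are the same and share their scaling. Without the 6 libraries least like their own group, r was -0.56, 0.47, 0.31, 0.25 and 0.37 in the same order.

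At 42 DAF, in each of the 3 tissues library 1 held the most FKF1 and ELF3 and the least LNK2. Seed coat libraries 1, 2 and 3 held 74.4, 21.1 and 31.3 CPM of FKF1, 42.9, 32.8 and 36.4 CPM of ELF3, and 9.32, 14.0 and 17.7 CPM of LNK2. The same 3 genes in the endosperm stood at 23.4, 11.1 and 9.21 CPM, at 60.7, 39.3 and 33.3 CPM, and at 1.08, 1.82 and 2.02 CPM. TOC1 was also highest in library 1 in each tissue. Of these libraries numbered 1, those of seed coat and endosperm are among the 6 least like their own group. Solyc12g056650 was not alike, since library 1 held the most of it in the embryo, at 370 CPM against 280 and 220 CPM, and the least in the endosperm, at 164 CPM against 261 and 266 CPM. Whether the libraries numbered 1 of these tissues came from the same fruits is not given in the sources used here, and the hour of harvest was not tested.

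The order of groups was a gradual one for most genes. Of the 27 neighbouring pairs of group means, the 3 libraries did not overlap in 1 pair for Solyc10g005030 and for Solyc12g056650, 2 for TOC1 and ELF3, 3 for LNK2 and FKF1, and 4 for Solyc04g071990 and EID1. For FKF1 1 of the breaks lay between embryo R14, with a mean of 109.6 CPM, and seed coat 42 DAF, with 42.2 CPM. For TOC1 the breaks set seed coat 42 and 35 DAF above seed coat 49 DAF, with 59.4 CPM, and that above whole seed 28 DAF, with 47.3 CPM. All other neighbours of TOC1 overlapped in their libraries.

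Among all genes passing the filter, the one whose log2 level followed that of each member most closely over the 28 group means was Solyc11g040040 for Solyc10g005030 (r = 0.93), Solyc12g099770 for TOC1 (0.95), Solyc01g102310 for Solyc04g071990 (0.84), Solyc05g050820 for Solyc12g056650 (0.84), Solyc12g099990 for LNK2 (0.96), Solyc02g069400 for EID1 (0.97), Solyc01g099810 for ELF3 (0.94) and Solyc01g109300 for FKF1 (0.97). The 28 means share tissues and ages, so these are likenesses of course only. Among the members themselves TOC1 and EID1 were most alike (r = 0.82 over the 28 means), followed by LNK2 and EID1 (0.81), and LNK2 and ELF3 were most unlike (-0.77).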

How the data were processed

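The 84 libraries were single-end reads that the authors quantified with Salmon 0.14.1 against the ITAG 4.0 gene models of the SL4.0 assembly. Deposited are estimated counts per gene, not scaled between libraries, of which 10.5% are not whole. They were rounded here, filtered with filterByExpr by group (24676 of 33976 genes kept) and tested in R 4.3.3 with edgeR 4.0.16, with TMM factors, 1 coefficient per group over all 84 libraries, a quasi-likelihood test and Benjamini-Hochberg adjustment. A gene was called at an adjusted p under 0.05 and an absolute log2 fold change above 1. Each SE was derived as the size of the log2 fold change over the square root of the F statistic of the test. The interval given for LNK2 rests on this SE and a normal distribution. Levels are TMM-scaled CPM, and correlations used a pseudocount of 1 CPM. DESeq2 1.42.0, library totals, no filter, a fit of only the groups compared, leaving out the libraries of each number, and the replicate number as a block were alternatives. Leaving out the 6 libraries least like their own group, and a block by the number in the column names, were added after seeing the data.

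On simulated counts for embryo MG against 35 DAF (22585 genes), all 200 genes changed 4-fold were recovered, with 8 wrong calls. The simulation planted changes only in well-counted genes. It gave every gene the same spread and all groups the same profile apart from these changes. Recovery at low counts or at a wide spread was therefore not tested. Figures were drawn with Python 3.11.15, pandas 2.3.3, numpy 2.4.6 and matplotlib 3.10.9.

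The members, the 13 further clock loci and the markers were chosen with earlier results of these data known. Named are the 8 members, further clock loci past both thresholds from 35 DAF to MG, and for each member the gene with the highest r over the group means. The named loci of the MG to R14 spans are in the closing section. None of the table's loci could be paired with a name in the reference table at hand, so names come from the rule and the study. Gene coordinates, promoter and protein sequences were not used here. Total counts of 16908779 to 22734330 per library limit precision for genes under 1 CPM, such as LNK2 at 49 DAF, and counting error alone does not cover differences between seeds.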

Additional observations from a re-analysis of the deposited data

Results flagged for a closer look

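The change from 35 DAF to MG differed between embryo and endosperm, by the interaction term of the edgeR quasi-likelihood fit with Benjamini-Hochberg adjustment, at an adjusted p under 0.05 for 7 of the 8 members, of which 4 also passed the fold limit. Over all genes, 39.4% had such an adjusted p and 27.1% also passed the fold limit. On the log2 scale, embryo minus endosperm, the difference was -2.63 for Solyc04g071990 (adjusted p = 5.93e-12), 1.23 for ELF3 (adjusted p = 2.16e-05), -1.20 for FKF1 (adjusted p = 0.00704), 0.61 for EID1 (adjusted p = 0.0109), 0.82 for Solyc12g056650 (adjusted p = 0.0141), 0.64 for TOC1 (adjusted p = 0.0152) and -1.38 for Solyc10g005030 (adjusted p = 0.0416). The signs were negative for Solyc04g071990, FKF1 and Solyc10g005030 and positive for the others. Across the alternatives 5 of the 7 missed an adjusted p of 0.05 at least once, with the highest adjusted p at 0.0779 for EID1, 0.0802 for TOC1, 0.110 for Solyc12g056650, 0.164 for FKF1 and 0.295 for Solyc10g005030. From MG to R14 the difference for Solyc12g056650 was -0.96 (adjusted p = 0.0120), with a highest adjusted p of 0.175 across the alternatives. The gap test for a library apart from its group needs at least 4 libraries and was not run on these groups of 3.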

How the results depend on the processing

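Of 1125 alternative values of 119 fold changes of members, 1047 kept their direction and their side of the call, 18 lost and 27 gained a call, and 33 changed sign, all of them values that were not called. The cause was not tested. Of 76 fold changes with an adjusted p under 0.05, 29 missed it in at least 1 alternative, 13 of them with library totals, and 23 of the 29 lay under the fold limit. Library totals in place of TMM factors made 38 of these 78 changes (18 changes of sign, 16 calls gained and 4 lost) and leaving out the libraries of 1 number 28, among them 12 of the 18 lost calls. Library totals also moved 12 of 32 ages of highest mean level, and moved the median of all genes in the embryo against the endosperm at 42 DAF to -0.54, beside -0.02 with TMM, and in the seed coat comparison to 0.50, beside 0.00. With library totals the sign turned to -0.20 (Solyc04g071990), -0.13 (EID1) and -0.18 (FKF1) for whole seed 28 against 15 DAF; to 0.18 (Solyc04g071990), 0.17 (Solyc12g056650), 0.074 (LNK2) and 0.19 (FKF1) for seed coat 49 against 35 DAF; to 0.091 (TOC1), 0.15 (EID1) and 0.28 (FKF1) for embryo R14 against MG; and to 0.0054 (EID1) and 0.0077 (ELF3) for endosperm R14 against MG. It turned to -0.21 (Solyc12g056650) and -0.15 (LNK2) for embryo against endosperm at 42 DAF, to 0.15 (Solyc12g056650) and 0.31 (ELF3) for the seed coat comparison, and to 0.10 (TOC1) and 0.15 (EID1) for the tissue difference in the change from MG to R14. DESeq2 gave -0.0098 for EID1 in the seed coat and 0.00066 and 0.051 for TOC1 and EID1 in that tissue difference, and a fit of only the groups compared gave -0.018 and 0.022 for EID1 in these comparisons. Without the 6 libraries least like their own group, Solyc10g005030 was at -0.045 for embryo R14 against MG, and the tissue difference from MG to R14 was -0.061 for Solyc04g071990 and -0.11 for LNK2.

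Numbers of members called with library totals were 1 for the whole seed, 2 for embryo R14 against MG, 4, 5 and 2 for embryo against endosperm at 35, 42 and 49 DAF, 0 over MG to R14, 6 for the seed coat comparison and 5 for the tissue difference from 35 DAF to MG. In the same order, 6841, 5708, 11340, 9604, 8415, 8360, 11573 and 7455 of 24676 genes were called. Without the 6 libraries, 1 was called at 49 DAF (LNK2), beside 8713 of 25638 genes. Leaving out the libraries of each number in turn gave 0 to 1 for embryo R14 against MG, 0 to 0 for endosperm R14 against MG, 1 to 2 and 0 to 1 for embryo against endosperm at 42 and 49 DAF, and 2 to 4 and 0 to 1 for the tissue differences from 35 DAF to MG and from MG to R14. It gave ranges that cross 0 of -0.32 to 0.024 (EID1) and -0.25 to 0.16 (FKF1) for embryo R14 against MG, -0.079 to 0.62 (Solyc12g056650) and -0.16 to 0.55 (LNK2) for embryo against endosperm at 42 DAF, -0.045 to 0.10 (Solyc12g056650) over MG to R14, -0.21 to 0.71 (LNK2) for the tissue difference from 35 DAF to MG, and -0.14 to 0.16 (EID1) for that from MG to R14. Over the consecutive steps it gave 13 to 21 calls. The correlations within groups moved, without the 6 libraries, to 0.25 (Solyc10g005030 and LNK2), 0.31 (TOC1 and FKF1), 0.37 (Solyc04g071990 and LNK2) and 0.47 (ELF3 and FKF1), and with library totals to 0.62 (Solyc04g071990 and LNK2) and -0.41 (LNK2 and ELF3).

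With the replicate number as a block no call of a member changed, and 15 steps were called, as without it. Same-numbered embryo and endosperm libraries of a stage deviated together with a correlation over 0.1 in 27 of 33 pairs (range -0.23 to 0.45), and 25 correlated best with their own number. By the numbers that end the table's column names, which pair PO libraries differently, this held for 29 of 32 pairs (range -0.033 to 0.45), 27 of them best with their own, and a replicate block by those numbers, added after seeing the data, also changed no call between the tissues. Most pairs thus deviated together, though not every pair passed 0.1 by either numbering, and the labels do not say what a number marks. The samples were analysed as unpaired, so the main tests between embryo and endosperm may treat linked libraries as independent. Depth limits LNK2 at 49 DAF, with 2 to 11 counts in the inner tissues.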

Other observations

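Among the 13 further clock loci, 4 were called in the embryo between MG and R14 and 1 in the endosperm. Of all genes, 19.6% and 12.1% were called in these spans. In the embryo, Solyc03g081240 averaged 9.01 CPM at R14 and 0.215 CPM at MG (log2 fold change 5.35 ± 1.08, adjusted p = 6.18e-05 from the edgeR fit, Benjamini-Hochberg adjusted), and in the endosperm 5.42 CPM at R14 and 0.770 CPM at MG (2.79 ± 0.92, adjusted p = 0.0163). Both MG means lie under 1 CPM, where depth limits the precision of a fold change. In the embryo, Solyc06g051660 rose by 2.03 ± 0.48, and Solyc10g086000 and Solyc02g036370 fell by 1.09 ± 0.15 and 1.04 ± 0.27. The MG mean of Solyc06g051660 in the embryo was also under 1 CPM. Embryo R14 library 1 is among the 6 libraries least like their own group, and values without these 6 are not given for these loci.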
